A study of Mus musculus with 9 samples.

Results

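The genes described here are 10 members of the cytokine pathway that runs from the gp130 receptors through JAK kinases to STAT3 and STAT5 and their SOCS inhibitors: Il6st, Osmr, Jak1, Jak2, Stat3, Stat5a, Stat5b, Socs3, Socs2 and Cish. They were taken by symbol from the platform annotation, which gave 13 probe sets of 41345 on the array and 10 of 22180 genes with 1 symbol. Socs2, Socs3 and Cish have more than 1 probe set each. RNA from mouse prostate cancer cells in culture was measured on the Affymetrix Mouse Gene 2.0 ST array, and values are log2 intensities of a probe set. Parental MYCCaP cells, a line from a prostate tumour of a mouse with a prostate-specific MYC transgene, were kept with dihydrotestosterone (+DHT), and their 3 arrays are technical replicates, counted as 1 sample. The vehicle group is 3 MYCCaP lines from mice that received vehicle, and the AZD1208 group is 3 MYCCaP lines from mice that received AZD1208, an inhibitor of the PIM kinases. The series title places these recurrent tumours in castrated mice, and both groups of lines are labelled -DHT. The 6 lines together are called recurrent lines here, and their passage through mice and the lack of DHT cannot be told apart in comparisons with the parental sample. The labels leave unsaid how many mice gave the lines and whether AZD1208 was present in culture, so p-values measure only the spread between these lines.

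In this pathway a cytokine of the interleukin-6 family joins gp130, encoded by Il6st, to a partner such as the oncostatin M receptor, encoded by Osmr. The receptors activate the kinases JAK1 and JAK2, which phosphorylate STAT3, while prolactin, growth hormone and several haematopoietic cytokines act mainly through JAK2 and the paralogues STAT5A and STAT5B. Activated STATs induce Socs3, Socs2 and Cish, whose products shut the receptors and kinases off, and they also induce Pim1, the gene of a kinase that AZD1208 blocks.

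STAT dimers bind DNA at the motif TTCNNNGAA, which reads the same on both strands. RefSeq promoter windows of assembly GRCm38.p6, from 250 bases before to 50 bases after an annotated start, were found for 9 of the 10 members, and those of Cish and Socs3 held the motif. These stretches are shown because both genes are feedback targets of STATs, and capitals mark each match, written 5′ to 3′ on the strand of the gene. The Cish stretch, chr9:107296654-107296683 on the plus strand, holds 2 matches, which begin at bases 1 and 12 counted from the annotated start. The Socs3 stretch, chr11:117969502-117969531 on the minus strand, holds 1 match, which begins 154 bases before a start that lies inside the span of the RefSeq gene.
Cish: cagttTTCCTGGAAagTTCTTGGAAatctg
Socs3: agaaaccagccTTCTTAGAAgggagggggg
Of all 32851 windows of this length 8.3% held the motif. A match describes these letters only, and STAT binding was not measured.

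No member passed the test in any comparison. The fit (limma, lmFit and eBayes, 7 samples, Benjamini-Hochberg adjustment) covered 15526 genes, and 0 of the 9 members in it were called for recurrent lines against parental or for AZD1208 against vehicle lines, where the share called among all genes was 0% in both (adjusted p = 1 for each member). The comparisons of vehicle and of AZD1208 lines alone with the parental sample also called 0 members, beside 0% of all genes. At an unadjusted p under 0.05, 1 of the 9 members stood out for recurrent against parental (Stat5b), beside 2.76% of all genes, and 0 for AZD1208 against vehicle, beside 0.522%. Osmr, the tenth member, was too dim for the fit, with a mean of 5.32 against the lower limit of 5.81. The median difference of the 9 members was -0.03 for recurrent against parental, beside -0.02 for all genes, and 0.10 for AZD1208 against vehicle, beside -0.02.

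**Figure D1:**
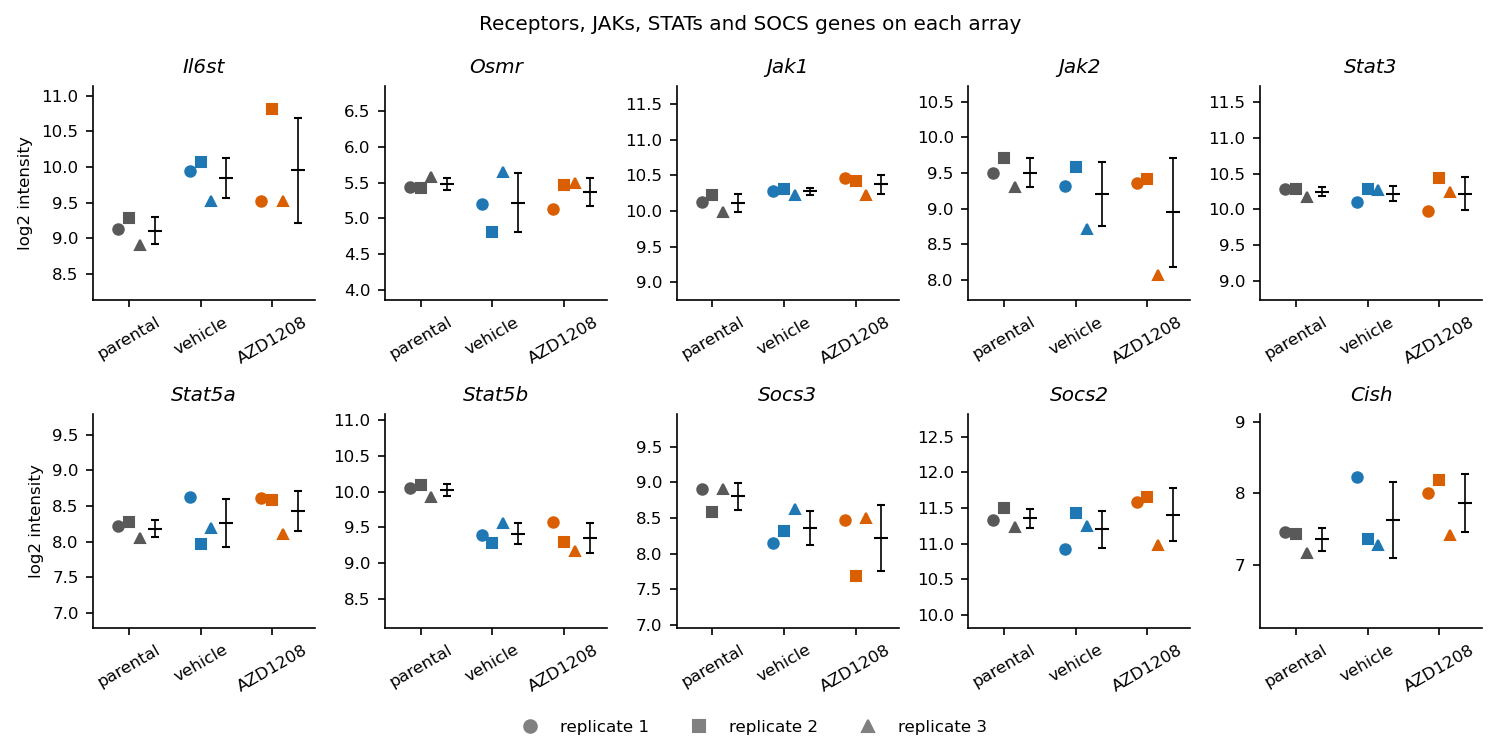
Log2 intensity (vertical axis, each panel spanning the same number of log2 units) of the 10 members on the 3 parental arrays and in the 3 vehicle and 3 AZD1208 lines. Symbols mark replicate numbers, and the bar beside each group is its mean with the SD (n = 3). Stat5b lies below and Il6st above all parental arrays in all 6 lines, and the vehicle and AZD1208 points overlap in every panel.

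Among the STAT genes, Stat5b was the member whose recurrent lines all lay below the parental arrays. Its parental arrays read 10.05, 10.09 and 9.92. Vehicle lines 1 to 3 read 9.39, 9.28 and 9.57, and AZD1208 lines 1 to 3 read 9.58, 9.29 and 9.16. The 6 lines lay below the lowest parental array without overlap, as 5.06% of all genes did. Stat5b was 1.56-fold lower in recurrent lines (log2 difference -0.64, SE 0.23, 95% interval -1.17 to -0.11), which did not pass (limma adjusted p = 1, unadjusted p = 0.0236). With the parental arrays counted as 3 samples, which takes technical spread for biological, Stat5b passed (limma adjusted p = 0.0481). Leaving out single samples gave differences of -0.70 to -0.60. AZD1208 lines stood -0.07 from vehicle lines (SE 0.17), and this value was above 0 in 4 of the alternative fits.

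Stat5a, the neighbour of Stat5b and Stat3 on chromosome 11 in RefSeq's GRCm38.p6, was split among the lines. It read 8.22, 8.27 and 8.05 on the parental arrays, 8.63, 7.97 and 8.19 in vehicle lines 1 to 3, and 8.60, 8.58 and 8.10 in AZD1208 lines 1 to 3. Vehicle 1, AZD1208 1 and AZD1208 2 lay above all parental arrays, while vehicle 2 lay below them. The difference was 0.16 (SE 0.30) for recurrent against parental, or 0.072 without vehicle 1 and 0.25 without AZD1208 3. For AZD1208 against vehicle it was 0.17 (SE 0.23), or 0.020 without vehicle 2 and 0.35 without vehicle 1. Set against its paralogue, Stat5b minus Stat5a was between 1.82 and 1.87 on the parental arrays and between 0.71 and 1.38 in the 6 lines, so the excess of the Stat5b value over the Stat5a value was smaller in each line. Whether probes of either set also read the other gene was not tested.

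Stat3, the factor downstream of gp130, had the smallest SD between lines among the STAT members, 0.18. It read 10.28, 10.29 and 10.18 on the parental arrays. In vehicle lines 1 to 3 it read 10.10, 10.29 and 10.27, and in AZD1208 lines 1 to 3 it read 9.98, 10.43 and 10.25. Parental, vehicle and AZD1208 values overlapped. The difference was -0.03 (SE 0.22, 95% interval -0.55 to 0.49) for recurrent against parental and 0.002 (SE 0.17, 95% interval -0.39 to 0.40) for AZD1208 against vehicle. Its sign turned with single lines left out in both comparisons. Stat2 and Stat6, the other STAT genes in the fit, differed by -0.11 to -0.09 for recurrent against parental and by 0.08 to 0.29 for AZD1208 against vehicle, and 0 of them passed.

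Among the receptors, Il6st was the member whose recurrent lines all lay above the parental arrays. The parental arrays read 9.13, 9.28 and 8.90. Vehicle lines 1 to 3 read 9.94, 10.07 and 9.53, and AZD1208 lines 1 to 3 read 9.53, 10.81 and 9.53. All 6 lines lay above the highest parental array, as 6.94% of all genes did, and AZD1208 2 was the highest. Vehicle 3 and AZD1208 3 carried the same deposited value. Il6st was 1.74-fold higher in recurrent lines (0.80, SE 0.48, 95% interval -0.32 to 1.91), which did not pass (limma adjusted p = 1, unadjusted p = 0.137). Between AZD1208 and vehicle lines it differed by 0.11 (SE 0.36), a value that ran from -0.32 without AZD1208 2 to 0.32 without AZD1208 1.

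AZD1208 2 also had the highest sum over the fibroblast markers, through some of them only. The 9 markers of that list, all of them measured, summed to 58.03 to 58.52 on the parental arrays, 61.84 to 64.34 in vehicle lines and 62.27 to 71.2 in AZD1208 lines, as sums of log2 values. Their mean stood 1.44 above parental in AZD1208 2, followed by 0.67 in vehicle 1. Postn and Pdgfra lay above all parental arrays in every line. Postn was highest in AZD1208 2, at 12.72, and Pdgfra in vehicle 1, at 10.03 against 9.84 in AZD1208 2. Pdgfrb and Dcn also lay above all parental arrays in AZD1208 2 and were highest there, at 9.78 and 6.68. The other 5 did not share this: Thy1 read 6.82 there against 7.24 to 7.40 on the parental arrays, Col1a2 6.84 against 7.04 to 7.16, Col3a1 6.61 against 6.75 to 6.79, and Lum (4.58) and Col1a1 (7.33) lay within the parental range. The mean of the 8 myeloid markers was also above parental in the 3 lines with the highest Il6st, by 0.30 in AZD1208 2, 0.40 in vehicle 2 and 0.16 in vehicle 1, and stood at -0.17 to -0.04 in the other lines. Lyz2, a macrophage lysozyme gene below the limit of the fit, read 6.42 to 7.10 in those 3 lines and 4.74 to 5.18 in the other lines. Adgre1 and Cd68 also lay above all parental arrays in those 3 lines, but not in those lines only. Cd68 lay above them in every line. Adgre1 did so in vehicle 3 (5.81) and AZD1208 3 (5.80) as well, beside 5.72 in AZD1208 2. The rest of the myeloid list did not lie above all parental arrays throughout those 3 lines. Csf1r read 5.93 to 6.17 there against 6.24 to 6.47 on the parental arrays, and Fcgr3 6.41 to 6.55 against 6.58 to 6.74. Cd14 and Ptprc were split among those lines, and Itgam lay within or below the parental range. The mean of the 8 epithelial markers was lowest in AZD1208 2 and vehicle 1, at -0.29 and -0.28 from parental, where Krt8 read 8.24 and 8.53 against 9.13 to 9.23 on the parental arrays. Epcam, Cldn3 and Cldn7 were also below the parental arrays in both lines, while Cdh1, at 6.96 and 6.86, lay within their range. Of these, only Cldn7 was low in those lines alone. Cldn3 was below the parental arrays in every line but vehicle 2, and Epcam was below them in vehicle 2 too (4.86, against 4.91 in vehicle 1). In AZD1208 2 Grhl2 read 7.98, above the parental 7.86, and Krt18 and Esrp1 lay within the parental range. Vehicle 1 had Grhl2, Krt18 and Esrp1 below it. No marker is listed at 0 on this scale. The part of these cell types or genes in the Il6st values was not tested. In RNA of a whole culture, fewer cells of a type and less RNA per cell cannot be told apart. Of the epithelial markers, Cldn3 read 11.65 to 12.54 across all arrays, lowest in vehicle 1, while Epcam, at 4.51 to 5.08, was below the limit of the fit.

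Osmr read 5.43, 5.43 and 5.58 on the parental arrays, 5.20, 4.81 and 5.64 in vehicle lines 1 to 3, and 5.14, 5.46 and 5.50 in AZD1208 lines 1 to 3. The groups overlapped, and vehicle 2 was the lowest. In a fit without the filter on dim genes Osmr differed by -0.19 (SE 0.30) for recurrent against parental and by 0.15 (SE 0.23) for AZD1208 against vehicle (limma adjusted p = 1 for both). The other gp130 partners and co-receptors were dim or near the parental level. Of 8 genes in that list, Il6st and Osmr among them, 7 had a probe set and 5 were in the fit, with 0 called in either direction and a median of -0.06 for recurrent against parental. Il6ra, the interleukin-6 receptor subunit, differed by 0.20 (SE 0.30), and by 0.09 without AZD1208 2. Of 12 genes of ligands that signal through gp130 or of their subunits, 7 were in the fit and 0 were called, with a median of -0.09. Clcf1, a cytokine of this family, differed by -0.30 (SE 0.35), and by -0.18 without AZD1208 1. The interleukin-6 gene itself, Il6, read 3.56 to 3.73 across all arrays, below the limit of the fit. For AZD1208 against vehicle the ligand gene of smallest p was Il27, at 0.29 (SE 0.19), or 0.16 without AZD1208 3.

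The kinase Jak1 varied least among the members. It read 10.12, 10.23 and 9.98 on the parental arrays, 10.29, 10.32 and 10.22 in vehicle lines 1 to 3, and 10.47, 10.42 and 10.23 in AZD1208 lines 1 to 3. Its SD between lines of a group was 0.10, smaller than that of all but 5.84% of genes. The difference was 0.21 (SE 0.19) for recurrent against parental, with 4 of 6 lines above the highest parental array, and 0.10 (SE 0.14) for AZD1208 against vehicle. The latter was 0.049 without AZD1208 1 and 0.17 without AZD1208 3.

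Jak2 was the most variable member between lines of a group, with an SD of 0.63 that exceeded those of 94.2% of genes. The parental arrays read 9.49, 9.71 and 9.31. Vehicle lines 1 to 3 read 9.32, 9.58 and 8.71, and AZD1208 lines 1 to 3 read 9.36, 9.42 and 8.07. Vehicle 3 and AZD1208 3 were low, and the other 4 lines lay within the range of the parental arrays. Jak2 differed by -0.43 (SE 0.53) for recurrent against parental and by -0.21 without AZD1208 3. For AZD1208 against vehicle it differed by -0.26 (SE 0.40), by -0.50 without vehicle 3, and without AZD1208 3 the sign turned (0.19). The array of AZD1208 3 had an interquartile range of 2.87 over all probe sets, below the 2.98 to 3.12 of the other arrays, and the part of that in its Jak2 value was not tested. Tyk2, the other JAK in the fit, differed by -0.14 for recurrent against parental. Between AZD1208 and vehicle lines it differed by -0.33 (SE 0.19, limma adjusted p = 1), by -0.50 without vehicle 1 and by -0.21 without vehicle 2.

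The SOCS genes, the feedback inhibitors, differed from one another in direction. Socs3, the inhibitor of gp130 signalling, read 8.91, 8.58 and 8.91 on the parental arrays at its brighter probe set. Vehicle lines 1 to 3 read 8.15, 8.32 and 8.62, and AZD1208 lines 1 to 3 read 8.47, 7.68 and 8.50. In 5 of 6 lines Socs3 lay below all parental arrays, vehicle 3 overlapped them, and AZD1208 2 was the lowest. Socs3 was 1.43-fold lower in recurrent lines (-0.51, SE 0.34, 95% interval -1.31 to 0.28, limma adjusted p = 1). For AZD1208 against vehicle it differed by -0.14 (SE 0.26), by -0.29 without AZD1208 3 and by 0.12 without AZD1208 2. Its dimmer probe set read 5.96 to 6.03 on the parental arrays and 5.72 to 6.04 in the lines, with a mean difference of -0.09, and the mean of both sets gave -0.30.

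Cish, an inhibitor induced by STAT5, read 7.47, 7.44 and 7.17 on the parental arrays at its brighter probe set. Vehicle lines 1 to 3 read 8.23, 7.36 and 7.28, and AZD1208 lines 1 to 3 read 8.003, 8.19 and 7.41. The lines fell apart into vehicle 1, AZD1208 1 and AZD1208 2, which lay above all parental arrays, and vehicle 2, vehicle 3 and AZD1208 3, which lay among them. The difference was 0.39 (SE 0.41) for recurrent against parental, or 0.23 without vehicle 1, and 0.25 (SE 0.31) for AZD1208 against vehicle, or 0.55 without vehicle 1 and 0.073 without vehicle 3. At the other probe set vehicle 1 read 7.66 and AZD1208 1 and 2 read 7.16 and 7.28, against 7.05 to 7.12 on the parental arrays and 6.87 to 7.10 in the remaining lines, so the same lines were high by smaller amounts. The mean differences at that set were 0.08 for recurrent against parental and 0.03 for AZD1208 against vehicle.

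Socs2, which limits growth hormone signalling, read 11.34, 11.50 and 11.23 on the parental arrays at its brighter probe set. Vehicle lines 1 to 3 read 10.93, 11.43 and 11.24, and AZD1208 lines 1 to 3 read 11.58, 11.66 and 10.98. Lines lay on both sides of the parental arrays, with AZD1208 1 and 2 above and vehicle 1 and AZD1208 3 below. It differed by -0.05 (SE 0.31) for recurrent against parental and by 0.21 (SE 0.23) for AZD1208 against vehicle, the latter falling to 0.07 without vehicle 1 and reaching 0.42 without AZD1208 3. The dimmer probe set read 7.59 to 7.79 on the parental arrays, 7.68 to 7.78 in vehicle lines and 7.86 to 8.13 in AZD1208 lines. On that set the AZD1208 lines lay above the vehicle lines without overlap, by 0.24, as 3.38% of genes in the fit did in one direction or the other, whereas on the brighter set they overlapped. The other 5 SOCS genes in the fit, Socs1 and Socs4 to Socs7, differed by -0.22 to 0.15 for recurrent against parental and by -0.22 to 0.10 for AZD1208 against vehicle, and 0 of them passed.

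**Figure D2:**
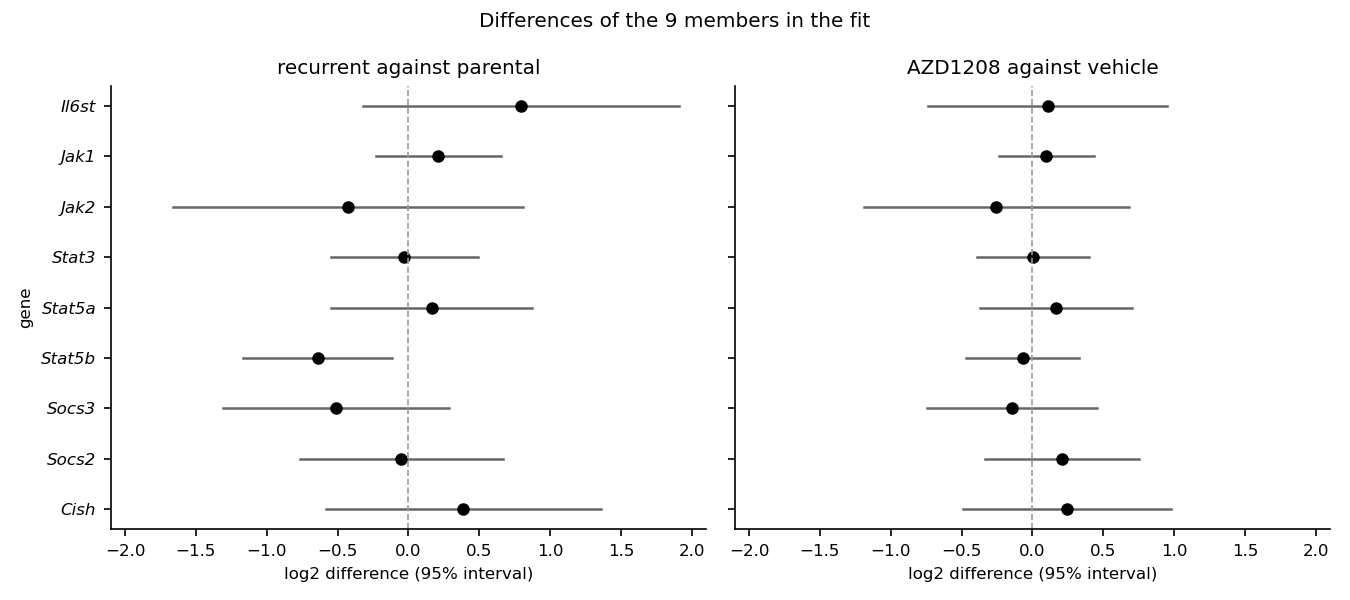
Log2 difference (horizontal axis) of the 9 members in the fit, as points with 95% intervals, for recurrent lines against the parental sample (left) and AZD1208 against vehicle lines (right). The interval of Stat5b in the left panel, -1.17 to -0.11, lies below 0, and all other intervals in both panels span 0.

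Members differed in which lines were high. Il6st and Socs3 ran in opposite order. AZD1208 2 had the highest Il6st and the lowest Socs3, vehicle 1 and vehicle 2 came next on both, and the parental sample had the lowest Il6st and the highest Socs3. Over the 7 samples Pearson's r was -0.97 and Spearman's rho -0.85, and r was -0.96 without AZD1208 2 and vehicle 2, the samples farthest from the median of Il6st. With Il6st, 19 genes of the fit, or 0.122%, had an r at least as negative, with Socs3 itself counted among them. The points share their arrays and the scale of each array. The dimmer Socs3 probe set had an r of -0.27 with Il6st. Stat5a and Cish were both high in vehicle 1, AZD1208 1 and AZD1208 2 and lower in the other 4 samples, 2 separate clusters, so no correlation is given. The 2 pairs were picked from 45 after their values were seen.

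**Figure D3:**
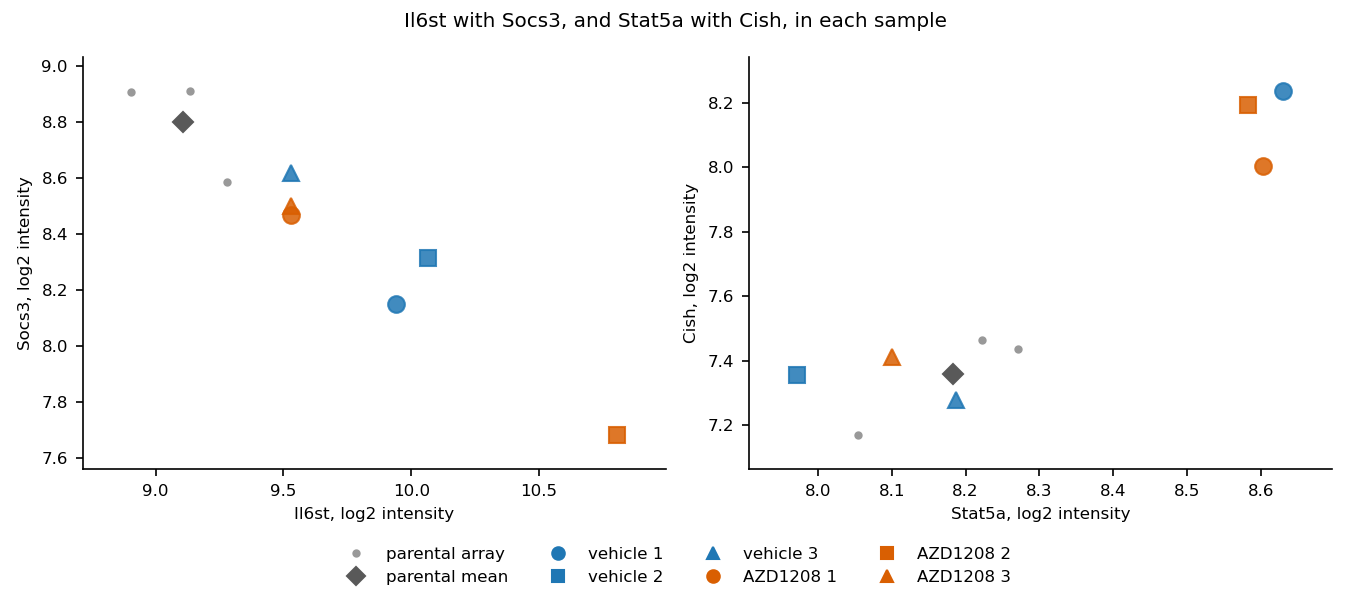
Log2 intensities of Il6st (horizontal) and Socs3 (vertical) on the left and of Stat5a and Cish on the right, with 1 symbol for each line, small dots for the 3 parental arrays and a diamond for their mean. Socs3 runs from 8.80 in the parental mean down to 7.68 in AZD1208 2 as Il6st runs from 9.11 up to 10.81, and vehicle 1, AZD1208 1 and AZD1208 2 form a group of their own on the right.

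Genes whose values over the 7 samples were most like those of a member were taken among 13881 genes of the fit with a standard symbol (13882 for Osmr), as the 3 with the highest Pearson's r. For Stat3 these were Gpat3, Chmp4c and Smtn (0.97 to 0.99). Socs3 was most like Ephx3, Odc1 and Eef1d (0.991 to 0.995), and Socs2 most like Gmfb, Sirt1 and Pbrm1 (0.96 to 0.97). Slc13a4, Zfp992 and Sdc3 were nearest to Cish (0.97 to 0.99). Clpsl2, Fat2 and Ms4a10 were nearest to the dim Osmr (0.96 to 0.98). With 7 samples and this many genes, values this high describe the arrays and carry no test.

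Genes that STATs are known to regulate spanned a wider range than the members, and 0 were called in each list. Of 35 genes in the STAT3 list, 27 were in the fit, with 15 higher and 12 lower in recurrent lines and a median of 0.08. Beyond the acute phase gene Hp (4.52, SE 0.51, limma adjusted p = 0.273) the smallest p belonged to the metalloreductase gene Steap4, which read 8.36 to 8.57 on the parental arrays and 10.33 to 12.64 in the lines (3.06, SE 0.85, limma adjusted p = 1). Both passed with the parental arrays counted as 3 samples (limma adjusted p = 0.000704 for Hp and 0.0256 for Steap4). Pim1, in both target lists, read 10.13 to 10.41 on the parental arrays and 8.87 to 9.81 in the lines (-0.83, SE 0.35, limma adjusted p = 1), or -0.47 as the mean of its probe sets. So Pim1 and Socs3 had lower values and Steap4 and Hp higher ones within a single list.

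Of 19 genes in the STAT5 list, 14 were in the fit, with 4 higher and 10 lower in recurrent lines and a median of -0.07. Bcl6, a repressor that STAT5 is known to hold down in several cell types, read 8.04, 8.02 and 7.69 on the parental arrays. It read 9.52, 9.34 and 8.82 in vehicle lines 1 to 3 and 8.74, 9.37 and 8.36 in AZD1208 lines 1 to 3. All 6 lines lay above the parental arrays, as for 6.94% of all genes. Bcl6 was 2.15-fold higher in recurrent lines (1.11, SE 0.39), which did not pass (limma adjusted p = 1, unadjusted p = 0.0245). Between AZD1208 and vehicle lines the STAT3 and STAT5 lists had medians of -0.04 each, beside -0.02 for all genes. Their smallest p belonged to Hp (1.23, SE 0.39) and to the survival gene Bcl2l1 (-0.50, SE 0.25), with limma adjusted p = 1 for both.

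Other receptors that couple to JAKs and other regulators of the pathway also had 0 genes called. Of 33 receptor genes 21 were in the fit, with 9 higher and 12 lower in recurrent lines. Il15ra, the receptor subunit for interleukin-15, read 7.34 to 7.44 on the parental arrays and 7.71 to 8.45 in the lines (0.78, SE 0.30). Ifnar1, a subunit of the type I interferon receptor, differed by 0.53 (SE 0.28) and the growth hormone receptor gene Ghr by 0.69 (SE 0.49). All 6 lines lay above the parental arrays for these 3 of the 21, beside 6.94% of all genes, and none passed (limma adjusted p = 1). Il15ra, Ifnar1 and Ghr shared AZD1208 2 as their highest line with Il6st, and so did Ifnar2 and Il6ra. Of 18 other regulators 17 were in the fit, with 10 higher and 7 lower in recurrent lines. Those of smallest p were the phosphatase gene Ptpn6 (0.46, SE 0.20), the deubiquitinase gene Usp18 (0.50, SE 0.27) and Pias3, whose product binds STAT3 (0.43, SE 0.27), and these 3 of the 17 had all 6 lines above the parental arrays, beside 6.94% of all genes. Sh2b2, an adaptor gene, had all 6 lines below them (-0.26, SE 0.20), beside 5.06% of all genes.

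For AZD1208 against vehicle 16 of the 17 regulators had lower values and 1 a higher one, beside 45.2% of all genes with higher values, and 0 passed. Their median was -0.08, and single differences ran from -0.36 for the ubiquitin ligase gene Cbl (SE 0.24) to 0.12. Cbl differed by -0.62 without AZD1208 2, by -0.20 without AZD1208 3 and by -0.28 with quantile normalization. The count of 16 was taken on the values as deposited only. Ptpn1, a phosphatase gene that acts on JAK2, had all AZD1208 lines below the vehicle lines (-0.13, SE 0.14), the only one of the 17 without overlap, beside 3.38% of all genes in either direction. AZD1208 2 (8.766) and vehicle 2 (8.768) were nearly equal, beside a median technical SD of 0.09 between parental arrays. Ptpn1 differed by -0.05 without AZD1208 3 and by -0.06 with quantile normalization. Among the receptors 15 of 21 were higher, led by p by the interferon receptor subunit Ifnar2 (0.59, SE 0.30), which differed by 0.28 without AZD1208 2 and 0.92 without AZD1208 3.

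**Figure D4:**
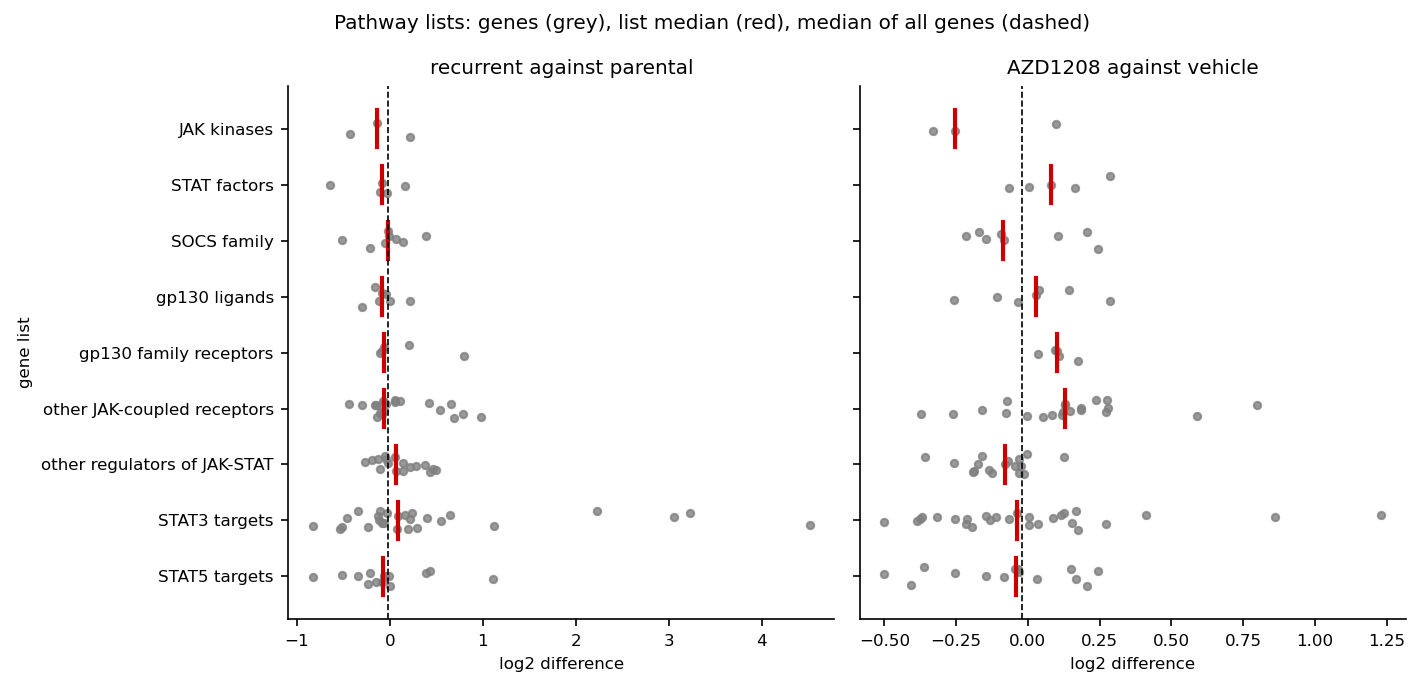
Log2 differences (horizontal axis, on its own scale in each panel) of the genes of 9 pathway lists for recurrent lines against parental (left) and AZD1208 against vehicle lines (right). Grey points are genes, red bars list medians and the dashed line the median of all 15526 genes, -0.02 in both panels. List medians lie between -0.14 and 0.08 on the left and between -0.26 and 0.13 on the right, while single STAT3 targets reach 4.52 on the left.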

How the data were processed

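The authors deposited log2 intensities, 1 per probe set and array. They were made with oligo, per the submitters' processing notes. Its version, the background, normalization and summary steps and the genome build were not given in the sources used here. Array medians lay between 6.22 and 6.36, and the number of arrays limits the precision. The values were used as deposited, with no detection calls.

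Gene names came from the platform annotation. For genes with several sets the probe set of highest mean stood for the gene, genes in the lowest 30% by mean were dropped, and the parental arrays were averaged. A single limma model (version 3.58.1, R 4.3.3; lmFit, then eBayes) with a term for group covered all 7 samples, so the lone parental sample is assumed to vary like the lines. P-values were Benjamini-Hochberg adjusted over 15526 genes, two-sided, with a threshold of 0.05. Intervals are 95% intervals from the same fit. Comparisons with the parental sample share it. The members and lists were chosen with earlier results of these data known. Named beside the members are the other JAK, STAT and SOCS genes, Pim1, and, from each other list, up to 3 genes of smallest p per comparison; Il6 and Sh2b2 were added with their values known.

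Replicate numbers 1 to 3 recur in both groups of lines. Deviations of same-numbered lines from their group means correlated across genes at 0.15, 0.12 and 0.53, all above 0.1. Vehicle 1 and AZD1208 2, with unlike numbers, correlated at 0.26, so these values do not settle whether the numbers pair the lines. The main fit, which gave the SEs, intervals and p-values above, left the numbers out. A replicate block was an alternative fit, beside quantile normalization, median centring, other filters, averaged probe sets, array quality weights, separate parental arrays and single samples left out. The procedure was tested on simulated data for AZD1208 against vehicle lines with 15526 genes. It called 55.2% of the genes changed by a log2 difference of 1 and 98.5% of those changed by 2, with 10 false calls. Every member in the fit differed by less than 1 in that comparison, so a lack of calls does not show a lack of change.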

Additional observations from a re-analysis of the deposited data

Results flagged for a closer look

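Of 28 genes screened, the members and part of the other genes named above, 2 had a line that stood apart. Stat2, Stat6 and Sh2b2 were among those not screened. In each, 1 recurrent line differed from the other 5 by more than Dixon's 95% critical value of 0.625 for 6 samples, a flag that chance raises in about 1 of 20 groups, so the 2 found are near what chance gives. For Ifnar1 this was AZD1208 2, at 10.85 against 10.34 in the nearest line, a gap of 0.649 of the whole range. For Ptpn1 it was AZD1208 3, at 8.53 against 8.76 in the nearest line, a gap of 0.678 of the whole range. Among the members Il6st in AZD1208 2 came nearest, with 0.579. What set these lines apart was not tested.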

How the results depend on the processing

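No member passed the threshold under the alternatives run, except Stat5b with the parental arrays as 3 samples. Of 401 single-gene differences under other settings 390 kept their direction and 11 turned; of 495 with 1 sample left out 474 kept it and 21 turned, and 0 passed. The causes were not tested.

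With the replicate block, AZD1208 against vehicle gave 0 genes and 0 members called, and the block changed no call. For that comparison array quality weights gave -0.17 for Stat3, 0.092 for Stat5b, 0.040 for Jak2 and -0.12 for Il6st, quantile normalization gave 0.0095 for Stat5b, and median centring gave -0.024 for Stat3. For recurrent against parental, Socs2 was 0.037 with probe sets averaged and 0.053 with weights. For vehicle against parental, Stat5a was -0.037 with quantile normalization and -0.017 with weights, and for AZD1208 against parental Stat3 was 0.0032 with quantile normalization. With weights 1 gene was called for recurrent and 2 for AZD1208 against parental. With the parental arrays as 3 samples 156 genes, 1 of them a member, were called for recurrent, 53 for vehicle and 41 for AZD1208 against parental.

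With single samples left out, AZD1208 against vehicle ranged from -0.10 to 0.12 for Stat3, -0.18 to 0.023 for Stat5b, -0.32 to 0.32 for Il6st, -0.29 to 0.12 for Socs3 and -0.50 to 0.19 for Jak2. Recurrent against parental ranged from -0.082 to 0.031 for Stat3 and -0.11 to 0.056 for Socs2. Vehicle against parental ranged from -0.065 to 0.029 for Stat3, -0.10 to 0.23 for Stat5a and -0.041 to 0.44 for Cish. AZD1208 against parental ranged from -0.13 to 0.092 for Stat3, -0.072 to 0.27 for Socs2 and -0.072 to 0.27 for the median member (0.27 without AZD1208 3), with 0 to 1 genes called (1 without vehicle 1).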
